A study of Mus musculus with 14 samples.

Results

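Akt1, Akt2, Gsk3a, Gsk3b, Pik3ca, Pik3r1, Inpp4b and Mtor encode the central proteins of the PI3K, AKT and GSK3 signaling route, and their RNA was followed here in mammary epithelial cells (MECs) of mice that overexpress Usp22, the deubiquitinase of the SAGA chromatin complex. The genes were taken by symbol from the deposited expression table, and 8 of 8 were found among its 16124 genes, each on a single row. RNA had been sequenced from MECs of 7 wild-type (WT) and 7 Usp22 OE/OE females of 3.5 months, 1 library per mouse. They formed 7 littermate pairs numbered 1, 3, 4, 5, 6, 7 and 8. In Usp22 OE/OE mice both ROSA26 alleles carried a FLAG- and MYC-tagged mouse Usp22 cDNA behind the CAGGS promoter, and a LoxP-STOP cassette before it had been removed in the germline by ZP3-Cre, so that the transgene was active in the whole animal and not in epithelium alone. WT littermates were the controls, and neither genotype received a treatment. The cells came from enzyme-digested glands, were enriched as organoids by differential centrifugation and were then dispersed, and no sort by surface marker is named.

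Receptor tyrosine kinases recruit class I PI3K, a dimer of a catalytic subunit (p110 alpha from Pik3ca) and a regulatory subunit (p85 alpha from Pik3r1), which makes the lipid PIP3 at the membrane. PIP3 brings AKT to the membrane, where it is phosphorylated in its activation loop and in its C-terminal hydrophobic motif. AKT in turn phosphorylates GSK3 near its N-terminus, which inhibits that kinase, and also acts on FOXO factors and on the mTOR complex, while phosphatases such as INPP4B act on the lipid signals. In the mammary gland the route passes on signals of insulin, IGF and EGF family ligands to growth, branching and survival of the epithelium. The study followed AKT and GSK3 beta as proteins and phosphoproteins, so the question put to the RNA was whether the genes themselves differed between OE/OE and WT littermates. Phosphorylation leaves no trace in these counts.

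The phosphorylated positions are given here because they are the usual targets of protein assays of this route, and because they show how far the paralogs differ in the letters that a read must match. They were read from GENCODE M21 transcripts of GRCm38, 5′ to 3′ on the coding strand, with the codon of the phosphorylated residue in capitals.
Akt1 activation loop, threonine codon 308: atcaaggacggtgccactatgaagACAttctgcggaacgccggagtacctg
Akt2 activation loop, threonine codon 309: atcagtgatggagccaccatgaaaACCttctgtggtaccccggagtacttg
Akt1 hydrophobic motif, serine codon 473: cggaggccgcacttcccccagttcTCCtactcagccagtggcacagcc
Akt2 hydrophobic motif, serine codon 474: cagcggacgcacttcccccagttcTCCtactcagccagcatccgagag
Gsk3a inhibitory serine codon 21: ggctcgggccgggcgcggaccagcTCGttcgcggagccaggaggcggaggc
Gsk3b inhibitory serine codon 9: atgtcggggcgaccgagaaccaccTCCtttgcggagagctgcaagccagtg
The activation loop codons lie in exon 10 of both AKT genes (chr12:112657101-112657103 for Akt1 and chr7:27636132-27636134 for Akt2), and the hydrophobic motif codons lie in exon 14 (chr12:112654722-112654724 and chr7:27638115-27638117). Both GSK3 codons lie in exon 1 (chr7:25237598-25237600 for Gsk3a and chr16:38090550-38090552 for Gsk3b). Akt1 and Akt2 shared 40 of 51 bases (78.4%) around the activation loop and 38 of 48 (79.2%) around the hydrophobic motif, while Gsk3a and Gsk3b shared 28 of 51 (54.9%) around the inhibitory serine. The longest run of identical bases between any annotated transcripts was 32 bp for the AKT pair and 17 bp for the GSK3 pair, shorter than the 75 bases of a read, so a full-length read that matches without a mismatch belongs to a single paralog.

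The libraries held 20125106 to 41835978 fragments counted on genes, and the WT mice of pairs 1 and 8 were the shallowest. Usp22 had 4258 ± 695 normalized read counts in WT and 107588 ± 22273 in OE/OE (mean ± SD, n = 7 each) and was higher in 7 of 7 pairs. Markers of epithelium were abundant (the 11 listed genes had a median of 43523 normalized read counts), but those of fibroblasts (5058) and of endothelium (6252) were also present, and no marker measured was at 0 in any library. In whole preparations of this kind, fewer cells of a type and less RNA per cell cannot be told apart. Littermates were compared on log2(normalized read count + 1) by limma, the pair being a block, at the study's threshold of an unadjusted p of 0.05.

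None of the 8 genes passed that threshold, against 3.81% of all 16124 genes, and each had an adjusted p of 1.00 in limma. With edgeR and DESeq2 on the recovered fragments, which called 597 and 626 genes of the table at the same threshold, 0 of the 8 passed as well. Their median log2 difference (OE/OE minus WT) was 0.0076 and their median absolute difference 0.068, compared with -0.0015 and 0.090 over all genes. Across the 14 libraries a median of 87.2% of the spread of the 8 genes on the log2 scale lay between littermate pairs and 1.10% between genotypes, compared with 73.9% and 1.43% over all genes. Akt2 had the largest genotype share of the 8, 20.6%, with 65.3% between pairs. In each of the 8 genes the range of the 7 OE/OE mice overlapped that of the 7 WT mice, as in all but 0.0434% of the genes in the table.

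**Figure D1:**
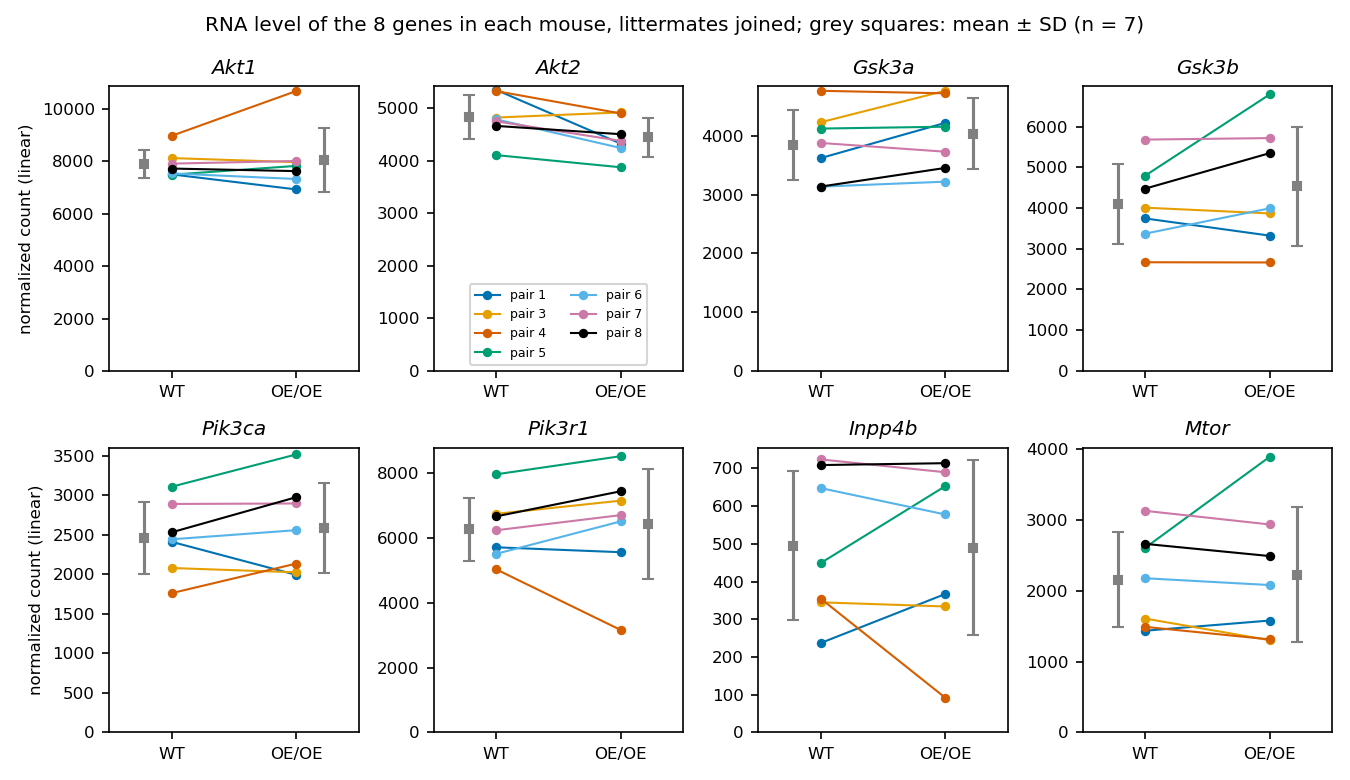
Normalized read counts (linear axis from 0) of each of the 8 genes in the 14 mice, with WT on the left and OE/OE on the right of each panel, a line joining littermates and grey squares with bars giving the mean and SD of 7 mice. Most lines run nearly level, and the OE/OE mouse of pair 4 falls to 92.1 normalized read counts in Inpp4b and 3160 in Pik3r1 while it is the highest of all in Akt1.

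Akt1 encodes the AKT isoform that is widely expressed and tied to growth and survival. Akt1 (ENSMUSG00000001729.14, chromosome 12, 112653821 to 112674884, minus strand) had 7489, 7724 and 8973 normalized read counts in the lowest, median and highest WT mouse. The OE/OE mice had 6927, 7825 and 10682. The groups overlapped almost entirely, and the highest mouse of either genotype came from pair 4. The fitted log2 difference was 0.02 (SE 0.07, 95% interval -0.13 to 0.17, limma p = 0.787, exact sign-flip p = 0.766), with 3 pairs higher and 4 lower in OE/OE. This interval corresponds to a fold of 0.913 to 1.12.

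Akt2, the isoform best known for insulin-driven glucose uptake, lies on chromosome 7 (ENSMUSG00000004056.15, 27591552 to 27640826, plus strand). It ran over 4112, 4793 and 5355 normalized read counts (lowest, median and highest) in WT and over 3880, 4383 and 4926 in OE/OE. OE/OE was the lower mouse in 6 of 7 pairs, pair 3 being the exception, and 6.79% of all genes were lower in at least 6 pairs. The mean fell from 4835 ± 423 to 4455 ± 370 (mean ± SD, n = 7 each), a log2 difference of -0.12 (SE 0.06, 95% interval -0.26 to 0.02). The pairs spanned -0.31 to 0.03. Its limma p was 0.0916, while exact sign flips of its 7 pair differences gave 0.0312 (two-sided, with 0.0156 the smallest value possible). Akt2 passed the threshold in 2 of 24 alternative analyses, the study's own kind of test (paired, on untransformed counts) and quantile normalization.

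Gsk3a encodes GSK3 alpha and lies on chromosome 7 (ENSMUSG00000057177.12, 25228258 to 25237851, minus strand). Its lowest, median and highest values were 3134, 3877 and 4764 normalized read counts in WT and 3218, 4153 and 4764 in OE/OE. Both genotypes thus covered the same range. The log2 difference was 0.07 (SE 0.06, 95% interval -0.07 to 0.21, limma p = 0.268, exact sign-flip p = 0.172), with 5 pairs higher and 2 lower.

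Gsk3b encodes GSK3 beta, the form the study blotted, which also marks beta-catenin for destruction. It lies on chromosome 16 (ENSMUSG00000022812.14, 38089001 to 38246084, plus strand) and ranged from 2668.5 through a median of 4009 to 5681 normalized read counts in WT. In OE/OE it ranged from 2663 through 3993 to 6790.4. The lowest mouse of either genotype was that of pair 4, and the highest OE/OE mouse was that of pair 5. The log2 difference was 0.11 (SE 0.09, 95% interval -0.09 to 0.31, limma p = 0.233, exact sign-flip p = 0.219), and 4 pairs were higher and 3 lower, from -0.17 to 0.50. The interval corresponds to a fold of 0.942 to 1.24.

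Pik3ca, the p110 alpha catalytic subunit, lies on chromosome 3 (ENSMUSG00000027665.13, 32397671 to 32468486, plus strand). It had 1763, 2444 and 3109.8 normalized read counts in the lowest, median and highest WT mouse and 1994, 2560.1 and 3519 in OE/OE. The log2 difference was 0.06 (SE 0.08, 95% interval -0.11 to 0.24, limma p = 0.435, exact sign-flip p = 0.422). Pairs ranged from -0.28 in pair 1 to 0.28 in pair 4, 5 higher and 2 lower.

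Pik3r1, the p85 alpha regulatory subunit that stabilizes and restrains p110, lies on chromosome 13 (ENSMUSG00000041417.15, 101680563 to 101768217, minus strand). WT mice had 5034, 6238 and 7964.5 normalized read counts (lowest, median and highest), and OE/OE mice 3160.3, 6705.5 and 8524. The lowest OE/OE mouse, that of pair 4, lay below every WT mouse. The log2 difference was -0.003 (SE 0.11, 95% interval -0.25 to 0.24, limma p = 0.976, exact sign-flip p = 1), although 5 pairs were higher and 2 lower. Pair 4 differed by -0.67, and the other 6 pairs lay between -0.04 and 0.24. Without pair 4 the log2 difference was 0.11.

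Inpp4b encodes the lipid phosphatase INPP4B, which dephosphorylates another membrane lipid that recruits AKT. It lies on chromosome 8 (ENSMUSG00000037940.17, 81342556 to 82127914, plus strand) and was both the least expressed and the most variable of the 8 genes. It had 237, 449 and 724 normalized read counts in the lowest, median and highest WT mouse, and 92.1, 578 and 714 in OE/OE. The 14 libraries spanned a fold of 7.86. The log2 difference was -0.15 (SE 0.27, 95% interval -0.74 to 0.45, limma p = 0.589, exact sign-flip p = 0.781), with 3 pairs higher and 4 lower. Pairs 1 and 5 differed by 0.63 and 0.54, and pair 4 by -1.94. Without pair 4 the direction turned, to a log2 difference of 0.15.

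The OE/OE mouse of pair 4 was also the lowest of all mice in fibroblast, endothelial, adipocyte and macrophage markers and the highest in dividing cell markers. The fibroblast list (10 of 10 genes in the table) had a mean log2 level of 11.97 in WT and 11.03 in OE/OE of that pair, where the WT mice ranged from 11.97 to 13.12 and the OE/OE mice from 11.03 to 12.77. The endothelial list (10 of 10) was at 12.29 and 10.59 in that pair, and the dividing cell list (10 of 10) at 4.55 and 10.10. The adipocyte list (9 of 10) was at 7.74 and 5.40, and the macrophage list (10 of 10) at 9.03 and 8.35. The pan-epithelial list (11 of 11) was at 14.80 and 14.97. The part of cell makeup in the Inpp4b and Pik3r1 values of pair 4 was not tested.

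Mtor encodes the kinase of both mTOR complexes, of which the second phosphorylates the AKT hydrophobic motif. It lies on chromosome 4 (ENSMUSG00000028991.15, 148448611 to 148557683, plus strand). Its lowest, median and highest values were 1436, 2177.5 and 3129.6 normalized read counts in WT and 1302, 2081 and 3893 in OE/OE. The log2 difference was -0.003 (SE 0.10, 95% interval -0.23 to 0.23, limma p = 0.974, exact sign-flip p = 0.984). OE/OE was lower in 5 pairs and higher in 2, of which pair 5 was the farthest from 0 with 0.58.

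**Figure D2:**
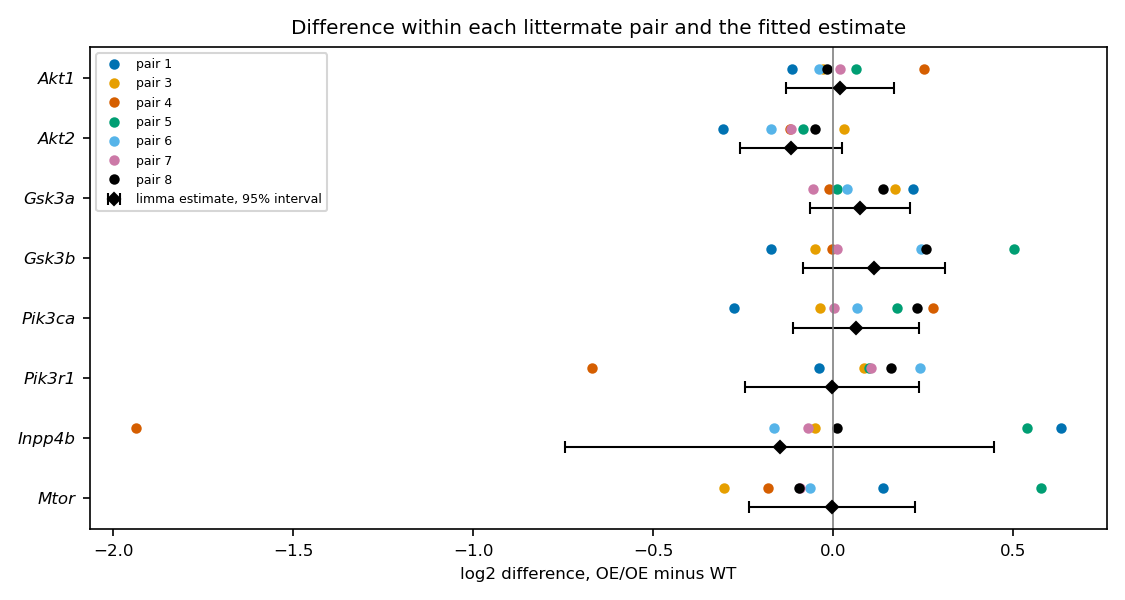
Log2 difference (OE/OE minus WT) of the 8 genes within each of the 7 littermate pairs (coloured points) and the limma estimate with its 95% interval (black diamond and bar). Every interval includes 0, that of Akt2 (-0.26 to 0.02) lies mostly below it, and that of Inpp4b (-0.74 to 0.45) is the widest.

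The order of the 8 genes by level was set per kb of exon, since longer genes collect more fragments. Averaged over the 14 libraries, Akt1 had 1946 normalized read counts per kb and Gsk3a 1358, followed by Akt2 (651), Pik3r1 (630), Gsk3b (439), Pik3ca (278), Mtor (217) and Inpp4b (37.7). Each gene was above the next in 14 of 14 libraries, with the exception of Akt2 and Pik3r1, which changed places in 7 of 14. Akt1 therefore exceeded Akt2 and Gsk3a exceeded Gsk3b in every mouse of both genotypes on this scale. The GSK3 order rests on the exon lengths used, 2900 bp for Gsk3a and 9831 bp for Gsk3b over all annotated transcripts. In counts not divided by length, the mean log2 ratio of Gsk3a to Gsk3b was -0.08 in WT and -0.11 in OE/OE. Apart from that pair (median ratio 1.00), the median ratio of a gene to the next ran from 1.33 between Pik3ca and Mtor to 5.53 between Mtor and Inpp4b.

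Ratios within a library do not depend on how the library was scaled, and 3 were compared between littermates. The log2 ratio of Akt1 to Akt2 counts was 0.71 ± 0.12 in WT and 0.85 ± 0.17 in OE/OE (mean ± SD, n = 7 each). It was higher in OE/OE in 6 of 7 pairs, by 0.14 on average (SE 0.05), and pairs ranged from -0.06 to 0.37. The exact sign-flip test gave p = 0.0469 and, adjusted over the 3 ratios, 0.141. The difference was 0.097 to 0.17 with any single pair left out. Pair 4 had the highest ratio in OE/OE and pair 3 was the only pair in which the ratio fell.

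The log2 ratio of Gsk3a to Gsk3b was -0.08 ± 0.46 in WT and -0.11 ± 0.60 in OE/OE (mean ± SD, n = 7 each), a difference of -0.04 (SE 0.11, exact sign-flip p = 0.734). It spanned more than 1 log2 unit among mice of either genotype. The highest ratio was that of pair 4 in both genotypes, and the lowest that of pair 7 in WT (-0.55) and pair 5 in OE/OE (-0.71). The log2 ratio of Pik3r1 to Pik3ca, regulatory to catalytic subunit, was 1.36 ± 0.20 in WT and 1.29 ± 0.38 in OE/OE, a difference of -0.07 (SE 0.15, n = 7 pairs, exact sign-flip p = 0.922). Pair 4 alone differed by -0.95, and the highest other pair by 0.24.

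**Figure D3:**
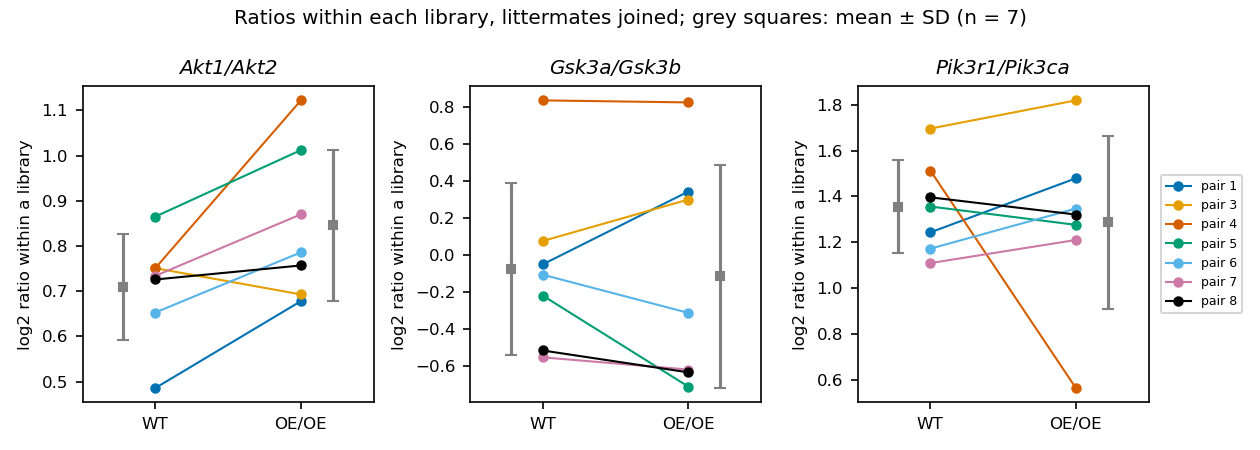
Log2 ratio of the normalized read counts of Akt1 to Akt2, Gsk3a to Gsk3b and Pik3r1 to Pik3ca in each library, with littermates joined and grey squares with bars giving the mean and SD of 7 mice. The Akt1 to Akt2 ratio goes up from WT to OE/OE in 6 of 7 pairs, and the Pik3r1 to Pik3ca ratio of pair 4 goes down by 0.95 while other pairs stay close to level.

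In each of the 8 genes more of the spread among mice lay between pairs than between genotypes. Gsk3b, Pik3ca and Mtor moved together over the 14 libraries. Pearson r of log2 levels was 0.88 for Gsk3b with Pik3ca, 0.89 for Pik3ca with Mtor and 0.86 for Gsk3b with Mtor. Spearman rho was 0.83, 0.81 and 0.85 in that order. Gsk3a and Gsk3b did not move together (r = -0.31, rho = -0.3). Akt1 and Pik3r1 had r = -0.70 but rho = -0.14, so their ranks did not run clearly opposite. Akt1 peaked (10682 normalized read counts) and Pik3r1 was lowest (3160) in the same library, OE/OE of pair 4. These correlations are descriptions over 14 libraries in which littermates resemble each other, so they carry no p. The same libraries differed in how genes of long and short mature RNA stood to each other. For each library the median centred log2 level of 4675 genes with at least 6000 bp of exon was set against that of 2857 genes with under 2000 bp, and this exon length contrast ran from -0.70 to 0.59 in WT and from -0.80 to 1.06 in OE/OE. Its mean was -0.06 ± 0.49 in WT and 0.03 ± 0.66 in OE/OE (mean ± SD, n = 7 each), and OE/OE was higher in 4 pairs and lower in 3 (exact sign-flip p = 0.453).

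Levels of Gsk3b (9831 bp of exon), Pik3ca (9088 bp) and Mtor (10109 bp) followed that contrast closely, with Pearson r of 0.95, 0.94 and 0.94 (Spearman rho 0.91, 0.93 and 0.88) over the 14 libraries. With the 2 libraries farthest from the median contrast left out, r was 0.95, 0.91 and 0.92. Pik3r1 and Inpp4b followed it less closely (r = 0.74 and 0.71), and the shorter Akt1 and Gsk3a (4098 and 2900.0 bp) had r of -0.40 and -0.31. Akt2 ran against it over the libraries (r = -0.71), with r = -0.48 when those 2 libraries were left out. Such values were common in the table, since 16.1% of 13230 genes with a mean of at least 50 normalized read counts had an absolute r of 0.9 or more. Within pairs, the Gsk3b difference followed the difference in the contrast with r = 0.86 (rho 0.79, exact permutation p = 0.00615 and 0.048, n = 7 pairs, adjusted p over the 8 genes 0.0492 for r). That r fell to 0.57 without the 2 pairs farthest from the median, so the relation rests in part on those pairs, and for the other 7 genes the adjusted permutation p was at least 0.545. Akt2, negative over the libraries, had a positive r of 0.45 within pairs (rho 0.75, exact permutation p = 0.34 and 0.0663). With the contrast as a covariate, a choice made after the data were seen, the log2 difference of Gsk3b was 0.04 and that of Akt2 -0.14, and neither passed the threshold in limma. What moves the contrast between libraries was not tested.

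**Figure D4:**
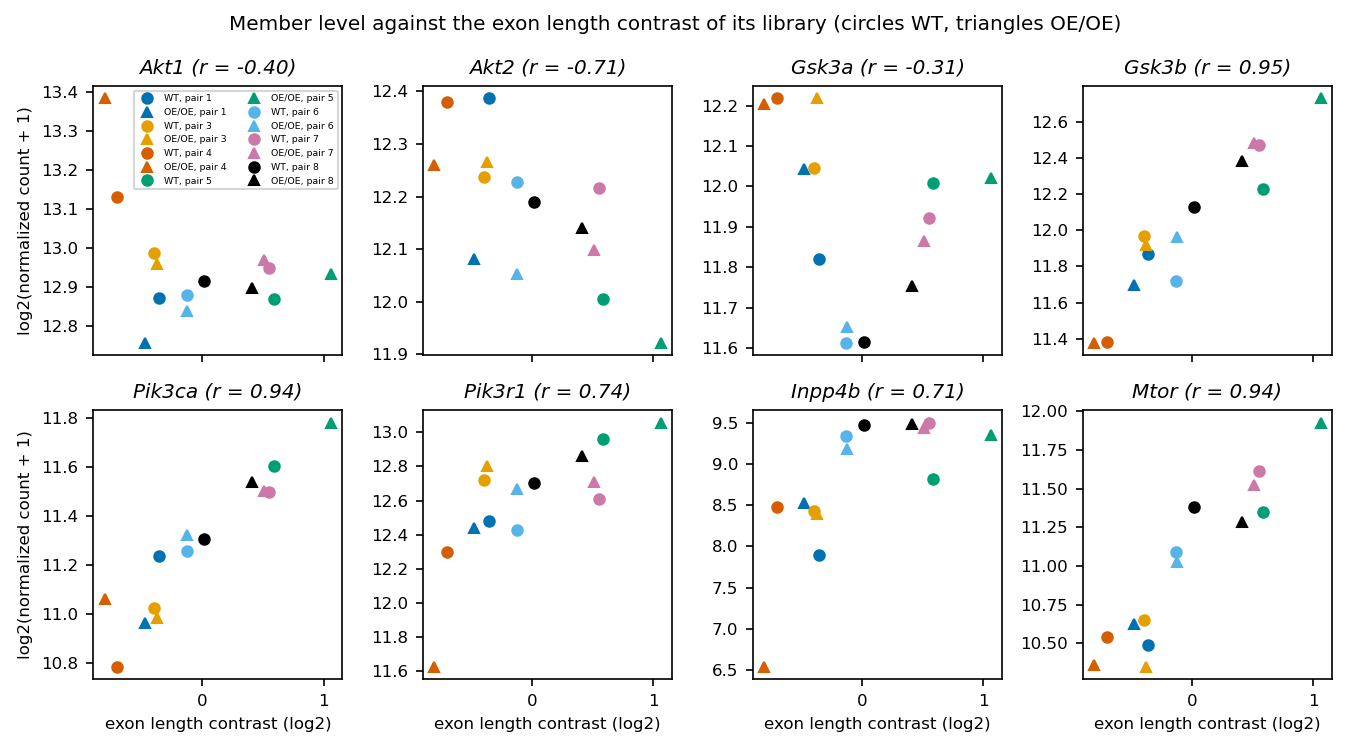
Log2(normalized read count + 1) of each of the 8 genes against the exon length contrast of the same library (log2, long minus short genes), with circles for WT, triangles for OE/OE and a colour per littermate pair. Gsk3b, Pik3ca and Mtor climb with the contrast in both genotypes (r = 0.95, 0.94 and 0.94), and littermates mostly lie close together.

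The genes whose levels ran most like each of the 8 were found among the 13230 genes with a mean of at least 50 normalized read counts, by Pearson r over the 14 libraries. Akt1 was most like Lonp1 (r = 0.946, rho = 0.912), Tomm40 and Prmt7, of which the first encodes a mitochondrial protease and the second a mitochondrial import channel. Akt2 had weaker companions, led by Arl8b (r = 0.863, rho = 0.859), Mt2 and Rps6-ps4, and Gsk3a likewise, with Ist1 (r = 0.881, rho = 0.833), Eps8l2 and Pex5. Gsk3b was most like Chst3 (r = 0.983, rho = 0.974), Trps1 and Pura. Pik3ca was closest to Prr14l (r = 0.988, rho = 0.96), Zfyve16 and Uhrf1bp1, and Mtor to D5Ertd579e (r = 0.987, rho = 0.96), Gigyf2 and Stk35. Pik3r1 was most like Boc (r = 0.953, rho = 0.916), Tgfbr3 and Maml2. Inpp4b was closest to Daam2 (r = 0.989, rho = 0.965), Fhl5 and Itga1.

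The rest of the route was read from a fixed list of 138 genes in 8 groups, of which 134 were in the table. The list was chosen with earlier results of these data known and holds Pdk4, which the study had reported as upregulated. Its share of calls is therefore no independent test. At an unadjusted limma p of 0.05 or less 11 of the 134 (8.21%) were called, 10 higher and 1 lower in OE/OE, against 1.95% and 1.85% of all genes called in each direction. None had an adjusted p under 0.05 in limma. The median log2 difference of the 134 genes was 0.07 and 96 of them lay above 0, where 49.6% of all genes did. In the group of receptors and adaptors (14 genes), in that of PI3K and AKT antagonists (15) and among AKT family members and upstream kinases (13), 0 genes passed.

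Among 11 other PI3K subunits, Pik3r3, a regulatory subunit of p85 type, was the only gene called. It had 783, 958 and 1041 normalized read counts in the lowest, median and highest WT mouse and 857, 1107 and 1359 in OE/OE. It was higher in 7 of 7 pairs, where 1.51% of all genes went the same way in all 7, with a log2 difference of 0.26 (SE 0.09, limma p = 0.014, exact sign-flip p = 0.0156). Pik3r5, the regulatory subunit of the gamma class found mainly in leukocytes, differed most without passing limma's test (-0.29, limma p = 0.0588, exact sign-flip p = 0.0312), and Pik3c2a, a class II enzyme, had the highest level per kb (547) and a log2 difference of 0.04.

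Irs2, an adaptor that links insulin and IGF receptors to PI3K, had the highest level per kb of its group (1549) and also the largest difference, 0.19 on the log2 scale (exact sign-flip p = 0.172). Grb2, an adaptor between receptors and RAS that the study blotted as protein, was looked up for that reason after its values were seen. It had 3658 ± 452 normalized read counts in WT and 3724 ± 505 in OE/OE (mean ± SD, n = 7 each), a log2 difference of 0.02 (95% interval -0.12 to 0.17, exact sign-flip p = 0.609). Among the antagonists, Trib1 was the most abundant per kb (3496) and Trib3 differed most (0.23, exact sign-flip p = 0.25). Among the kinases, Sgk1 had the highest level per kb (6179.9) with a log2 difference of 0.004, and Ikbke differed most (-0.17, exact sign-flip p = 0.562).

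Of 25 genes of the mTORC1 module, 2 were called, both of which encode stress-induced brakes on mTORC1. Sesn2 had 1218, 1337 and 1653 normalized read counts in the lowest, median and highest WT mouse and 1252, 1754 and 2115 in OE/OE, a log2 difference of 0.25 (SE 0.09, limma p = 0.0202, exact sign-flip p = 0.0312), and it was higher in 6 of 7 pairs, where 7.32% of all genes were higher in at least 6. Ddit4 ran over 1465, 1954 and 2503 in WT and over 1634, 2095 and 3718 in OE/OE, a log2 difference of 0.23 (SE 0.09, limma p = 0.033, exact sign-flip p = 0.0625), higher in 5 of 7 pairs. The groups of both genes overlapped. Ddit4l, a relative of Ddit4 at low level, had the largest difference (0.29, exact sign-flip p = 0.422). Rps6, the ribosomal protein downstream of S6 kinase, was the most abundant per kb and had a log2 difference of -0.006, but it has many processed pseudogenes that can share its reads, so its value is uncertain.

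Of 19 AKT substrates, Foxo3, Map3k5 and Acly were called, all higher. Foxo3, the forkhead factor that AKT keeps out of the nucleus, had 4311, 5365 and 6404 normalized read counts in the lowest, median and highest WT mouse and 5146, 6732 and 9756 in OE/OE. It was higher in 7 of 7 pairs, by 0.05 to 0.70, with a log2 difference of 0.32 (SE 0.09, limma p = 0.00714, exact sign-flip p = 0.0156). Acly, the enzyme that supplies acetyl-CoA to the cytosol, differed by 0.19 (limma p = 0.0265, exact sign-flip p = 0.0312), and Map3k5, the stress kinase ASK1, by 0.22 (limma p = 0.028, exact sign-flip p = 0.0312), each higher in 6 of 7 pairs. Zfp36l1, an RNA decay factor and the most abundant of this group per kb (7944), had a log2 difference of 0.27 (exact sign-flip p = 0.125).

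Of 21 GSK3 partners and substrates, Axin2 was called. It encodes a scaffold that holds GSK3 beta and beta-catenin and is a widely used Wnt target. It had 118, 154 and 201 normalized read counts in the lowest, median and highest WT mouse and 146, 213 and 279 in OE/OE. It was higher in 7 of 7 pairs, by 0.03 to 0.85, with a log2 difference of 0.46 (SE 0.13, limma p = 0.00672, exact sign-flip p = 0.0156). Mcl1, a survival protein that GSK3 marks for degradation, was the most abundant per kb (8031) and differed by 0.10 (exact sign-flip p = 0.547).

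Of 24 FOXO target genes in the table, 4 were called, 3 higher and 1 lower. Pdk4, the kinase that switches off pyruvate dehydrogenase, differed by 0.78 on the log2 scale (SE 0.26, limma p = 0.0146, exact sign-flip p = 0.0312) and was higher in 6 of 7 pairs, from 1338, 3080 and 4757 normalized read counts (lowest, median and highest) in WT to 3033, 5476 and 7515 in OE/OE. Its pairs ranged from -0.11 to 2.49, and without pair 3 its log2 difference was 0.49. Fbxo32, the ubiquitin ligase atrogin-1, ran over 1729, 2446 and 3246.5 in WT and 1349.5, 3917 and 4509.6 in OE/OE, a log2 difference of 0.48 (SE 0.17, limma p = 0.0173, exact sign-flip p = 0.0781). Ccng2, a cyclin tied to cell cycle arrest, was higher in 7 of 7 pairs, although by 0.001 in the lowest, and differed by 0.39 (SE 0.13, limma p = 0.012, exact sign-flip p = 0.0156). Txnip, which restrains thioredoxin and glucose uptake and was the most abundant of the group per kb (6719), fell by 0.32 (limma p = 0.0159, exact sign-flip p = 0.0312) and was lower in 6 of 7 pairs. The members of this group thus moved in both directions.

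**Figure D5:**
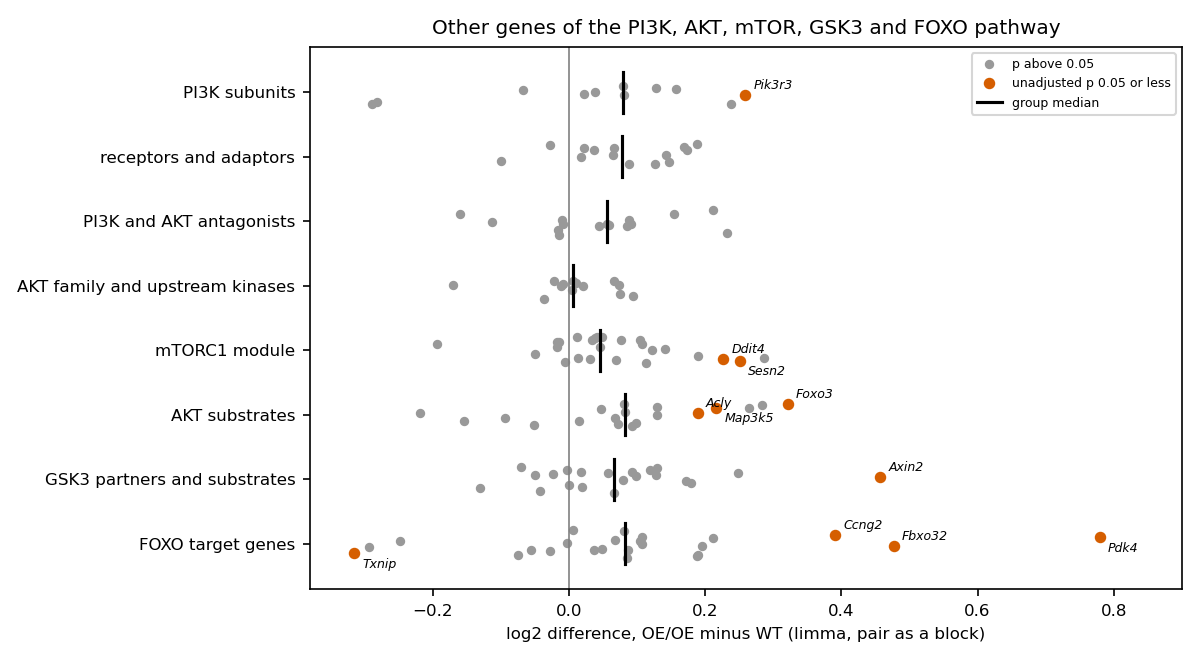
Log2 difference (OE/OE minus WT, limma with the pair as a block) of the 134 other genes of the route by group, with orange points for an unadjusted p of 0.05 or less and a black bar for the group median. Of the 11 orange points, 10 lie to the right of 0 and Txnip to the left, and group medians lie between 0.006 and 0.08.

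The 10 marker lists were also compared between littermates, and the lowest exact sign-flip p of any list was 0.0625. The adipocyte list (9 of 10 genes in the table, none at 0) had a mean log2 level of 6.40 to 8.25 in WT and 5.40 to 7.55 in OE/OE. It was lower in 6 of 7 pairs, with a mean difference of -0.83 (exact sign-flip p = 0.0625, adjusted over 10 lists 0.312). Its genes had a median of only 42.7 normalized read counts. Adipoq, Plin1, Cidec, Cfd and Retn, the 5 called, had log2 differences from -1.33 to -1.175. Fabp4 (-0.36), Plin4 (-0.28) and Lep (-0.56) did not pass in limma, and Lipe went the other way (0.20). The pan-epithelial list (11 of 11) ran from 14.23 to 14.80 in WT and from 14.35 to 15.04 in OE/OE. That list was higher in 6 of 7 pairs, by 0.15 (exact sign-flip p = 0.0625, adjusted over 10 lists 0.312). With the adipocyte score as a covariate 33 of the 134 genes were called, 22 higher and 11 lower, while 18.6% of all genes were called in that fit. With the pan-epithelial score 1 of the 134 was called, Ccng2, against 2.13% of all genes. Of the 11 genes, 7 lost the call with the adipocyte score and 10 with the pan-epithelial score, but each kept its direction. Their log2 differences were 40.2% to 156% (median 83.3%) of those without a score in the first fit and 68.0% to 117% (median 83.1%) in the second. Foxo3, for example, was at 0.33 with the pan-epithelial score and 0.32 without it. The 8 central genes had 1 call with the adipocyte score, where 18.6% of all genes had one. It was that of Inpp4b, at a log2 difference of 0.55 (limma adjusted p = 0.179). With the fibroblast, pan-epithelial, hormone-sensing luminal or dividing cell scores 0 of the 8 were called.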

How the data were processed

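The authors aligned read pairs to mm10 using TopHat2 2.0.10, counted fragments per gene with HTSeq 0.6.0, and deposited a signal, counts divided by DESeq 1.18.0 size factors, on a linear scale. All 16124 genes matched GENCODE M21, and all had at least 10 fragments in 7 libraries. Of the deposited values 100% were whole fragments after the step of each library was recovered (tolerance 0.001 fragments), with 20125106 to 41835978 fragments per library. Strand is not given in the sources used here.

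Differences were fitted with limma 3.58.1 in R 4.3.3 (trend) on log2(value + 1), over all genes, with the littermate pair of the labels as a block, in place of the study's paired test on counts. Deviations from group means correlated within each pair over genes (lowest 0.171, median 0.522). Single values were tested by exact sign flips over the 7 pairs (128 patterns). Alternatives covered the block, pseudocounts 0.1 and 10, a minimum mean of 50, edgeR 4.0.16, DESeq2 1.42.0, other scalings, marker scores and each pair left out. The exon length covariate was added after the data were seen.

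The members, pathway and marker lists were chosen with earlier results of these data known. The text names the 8 members, pathway genes called at the threshold, the largest difference and highest level of each group, and the 3 genes most like each member. Grb2 was named outside that rule, and results of some genes are not reported here. Each library is from a separate mouse.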

Additional observations from a re-analysis of the deposited data

Results flagged for a closer look

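In 42 groups of 7 mice checked for a mouse far from the others (8 genes, 3 ratios and 10 marker lists in both genotypes), 4 had such a mouse, where about 2.1 would be met by chance. The gap to the nearest mouse is given as a share of the whole range of its group. Akt1 was highest in the mice of pair 4 in both genotypes. The WT mouse had 8973 normalized read counts against 8123 in the next WT mouse, a share of 0.573, and the OE/OE mouse 10682 against 8013, a share of 0.711. The endothelial marker score was lowest in the same OE/OE mouse, at 10.6 against 12.1 on the log2 scale, a share of 0.634. The lymphocyte marker score was highest in the WT mouse of pair 1, at 7.25 against 4.97, a share of 0.64. Without pair 4 the log2 difference of Akt1 was -0.02.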

How the results depend on the processing

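With 7 pairs the 95% interval of a member had a median width of 0.37 on the log2 scale. Gsk3a, Gsk3b and Akt2 kept their direction in all 24 alternatives, from 0.033 to 0.11, from 0.038 to 0.16 and from -0.17 to -0.086. No scaling moved the median of all genes by over 0.03. Members called changed from 0 to 1 with the paired test on untransformed counts (Akt2, -0.12), with quantile normalization (Akt2, -0.15) and with the adipocyte score (Inpp4b), and stayed at 0 with any pair left out. Pathway calls changed from 11 to 4 without the replicate block, 33 with the adipocyte score, 7 with the fibroblast score and 1 with the pan-epithelial score, and ran from 9 to 21 with each pair left out (21 without pair 1). The pan-epithelial score ended the call of 10 of the 11 genes, the fibroblast score 8, and the adipocyte score and the fit without the block 7 each, and none of the 11 changed direction in any alternative. Their log2 differences had a median of 83.1%, 88.0% and 83.3% of the value without a score under the pan-epithelial, fibroblast and adipocyte scores, the lowest being 68.0%, 39.0% and 40.2%. Leaving out pair 3 ended the calls of Acly, Ddit4, Map3k5 and Sesn2, pair 4 those of Acly and Ddit4, pair 5 those of Acly and Map3k5, pair 6 those of Ddit4 and Sesn2, and pair 8 that of Map3k5. Calls over all genes changed from 614 to 182 without the replicate block, 2995 with the adipocyte, 343 with the pan-epithelial and 986 with the dividing cell score, and from 381 to 1366 with each pair left out (381 without pair 6, 1196 without pair 1, 1366 without pair 4).

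With quantile normalization Akt1 was -0.022. With the adipocyte score Akt1 was -0.069, Pik3ca -0.082, Pik3r1 0.16, Inpp4b 0.55 and Mtor 0.12. With the fibroblast score they were -0.033, -0.0067, 0.056, 0.17 and 0.025. Pik3r1 was 0.039 with the paired test, 0.016 with median centring, 0.056 with the pan-epithelial and 0.0052 with the dividing cell score, and Mtor 0.046 with the paired test, 0.016 with median centring and 0.0049 with the hormone-sensing score. With each pair left out Akt1 ran from -0.020 to 0.041, Pik3r1 from -0.044 to 0.11, Inpp4b from -0.28 to 0.15 and Mtor from -0.10 to 0.047. The Akt1 to Akt2 ratio kept its value (0.14) without the replicate block, at an exact permutation p of 0.11, and ran from 0.097 to 0.17 with each pair left out (exact sign-flip p from 0.0312, the smallest 6 pairs allow, to 0.0938). The Gsk3a to Gsk3b ratio ran from -0.11 to 0.036 and the Pik3r1 to Pik3ca ratio from -0.12 to 0.080. Marker scores with each pair left out ran from 0.12 to 0.20 (pan-epithelial), -0.049 to 0.024 (hormone-sensing luminal), -0.24 to 0.030 (luminal progenitor), -0.11 to 0.012 (basal), -0.55 to -0.29 (fibroblast), -1.06 to -0.57 (adipocyte), -0.35 to -0.17 (macrophage), -0.27 to 0.16 (endothelial), -0.36 to 0.14 (lymphocyte) and -0.82 to 0.51 (dividing cell). The cause of these changes was not tested.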
